A study of Mus musculus with 8 samples.

Results

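The genes that encode complex II, complex III and the ATP synthase of mitochondria, together with their assembly factors, were followed in the mouse pineal gland. They were taken as the protein-coding rows of the deposited table whose gene name begins with Sdha, Sdhb, Sdhc, Sdhd, Uqc or Atp5. The rule found 36 genes among 21980 protein-coding rows and used no measured value. Of these, 27 encode subunits of the complexes, 4 are Sdhaf assembly factors of complex II and 3 are Uqcc assembly factors of complex III. Atp5s and Atp5sl were taken in by their names and were counted neither as subunits nor as assembly factors.

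Complex II (succinate dehydrogenase) oxidizes succinate in the citrate cycle and passes the electrons to ubiquinone. Complex III takes them from ubiquinol to cytochrome c and moves protons across the inner membrane. The ATP synthase lets protons flow back through its membrane part, Fo, and uses the turning of a ring of c subunits to make ATP in its soluble head, F1. Complex II is encoded wholly in the nucleus, whereas complex III and the ATP synthase each also contain subunits encoded by mitochondrial DNA.

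RNA-seq of ribosome-depleted total RNA compared 4 libraries of 5xFAD mice with 4 of wild type (WT) mice. The 5xFAD mice were males of the B6.Cg transgenic line from one supplier, carrying human APP with the Swedish, Florida and London changes, driven by the Thy1 promoter. The WT mice were C57BL/6 males from another supplier, so that supplier and genotype cannot be told apart. Each library held the glands of 5 to 7 mice of 5 months, killed at zeitgeber time 0.5 h (time from lights on) under 12 h of light and 12 h of dark. The libraries carry the numbers 1, 2, 3 and 21 in the 5xFAD group and 11, 21, 22 and 23 in the WT group (titled Normal in the labels), and values follow that order.

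Values are FPKM, fragments scaled to transcript length and to the mapped fragments of the library, as deposited by the authors. In these libraries 1 fragment on a transcript of 1000 nt was worth 0.0525 to 0.0859 FPKM, and the lowest member value was 1.85 FPKM (Sdhaf3 in WT-11). Pinealocyte marker genes were present in every library, with a sum of 2721 to 4409 FPKM in 5xFAD and 1934 to 4105 FPKM in WT libraries. WT-11 and WT-21, at 1993 and 1934 FPKM, lay below every 5xFAD library. At an unadjusted p under 0.05 from limma, 3 of the 12 markers were higher in 5xFAD and 0 lower, against 4.57% and 3.33% of all tested genes. The part of this difference in the results was not tested. Library 5xFAD-2 stood apart in markers of brown fat, whose sum over 10 genes was 2188 FPKM there, 41.5 to 114 FPKM in the other 5xFAD libraries and 40.9 to 63.6 FPKM in WT libraries. The sum of 8 markers of bone-forming cells was highest in WT-11, at 2019 FPKM, of which 1893 FPKM came from Col1a1. The sum was 52.8 to 447 FPKM in 5xFAD libraries and 107 to 1606 FPKM in the other WT libraries. Alpl was highest in WT-21 and Dmp1 in 5xFAD-2, and the other markers were highest in WT-11. Fold changes are therefore also given without 5xFAD-2 or without WT-11 where leaving out that library moved them by more than 1.5 times in a gene described in full. The share of unread bases also split the libraries into a low set (5xFAD libraries 1, 2 and 3, with WT-11) and a high set (5xFAD-21 and the other WT libraries). The GC rate of the libraries, in the study's own table, separated the groups fully, so that it and genotype cannot be told apart. Of 8 markers of choroid plexus, a neighbouring tissue, 1 was listed at 0 in every 5xFAD library and was high in every WT library. The other 7 summed to 201 FPKM in 5xFAD-1, 632 to 1005 FPKM in the other 5xFAD libraries and 512 to 737 FPKM in WT libraries, and their part in the results was not tested. In bulk RNA, fewer cells of a type and less RNA per cell cannot be told apart.

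The promoters of 31 of the 36 genes had an entry in the RefSeq table (build GRCm38.p6), from 250 bases before to 50 bases after the start. The site of NRF1, a regulator of respiratory chain genes (the letters GCGCA, any base, then GCGC), stood on either strand in 12 of the 31 genes (38.7%), against 5.19% of 27025 genes. The letters CCGGAAG, an ETS site of the kind bound by GABP, stood in 12 of 31 (38.7%), against 9.93% of all genes, and 20 of the 31 held at least 1 of both motifs. The TATA box letters TATAAA stood in 6.45% of the members and in 15.7% of all genes. The 27025 genes were all those with a window, not selected by class or by expression in the gland. The members all were protein-coding and expressed there, so the shares compare unlike sets of genes. These matches are descriptions of the windows and show no binding. Printed here are stretches before the start that overlap no annotated exon, in lower case with NRF1 and ETS letters in capitals. They belong to Uqcrfs1 and Uqcc3, the genes with a window that stood highest and lowest in 5xFAD-2 relative to the other 5xFAD libraries, and to Atp5h and Sdhd, whose windows hold both motifs, of which 1 falls in each printed stretch.
Uqcrfs1, chr13:30545363-30545516, minus strand: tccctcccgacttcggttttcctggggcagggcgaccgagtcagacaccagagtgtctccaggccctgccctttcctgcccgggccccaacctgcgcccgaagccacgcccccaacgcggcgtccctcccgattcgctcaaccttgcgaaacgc
Uqcc3, chr19:8880934-8881133, minus strand: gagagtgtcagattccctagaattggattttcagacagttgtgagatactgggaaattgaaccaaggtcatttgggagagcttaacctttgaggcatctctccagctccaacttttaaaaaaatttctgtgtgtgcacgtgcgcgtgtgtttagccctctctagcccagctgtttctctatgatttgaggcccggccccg
Atp5h, chr11:115419963-115420119, minus strand: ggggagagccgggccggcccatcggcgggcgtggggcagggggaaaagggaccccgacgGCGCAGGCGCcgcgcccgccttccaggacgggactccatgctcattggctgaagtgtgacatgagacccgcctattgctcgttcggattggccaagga
Sdhd, chr9:50603850-50603909, minus strand: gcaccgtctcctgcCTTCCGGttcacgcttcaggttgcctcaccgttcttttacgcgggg
The median log2 fold change of 5xFAD over WT was 0.20 in the 12 genes with the NRF1 letters and 0.18 in the 19 without.

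Most of the 36 genes had a somewhat higher mean in 5xFAD than in WT glands, and no difference of a single gene passed the test. At an adjusted p under 0.05 from limma, 0 of the 36 were called, where 0.0382% of 13094 tested protein-coding genes were, and the smallest adjusted p was 0.642 (Sdhaf3). At an unadjusted p under 0.05, 0 were higher and 0 lower, against 4.57% and 3.33% of all tested genes. The fold change was above 0 in 34 of 36 genes, beside 48.7% of all genes, and its median was 0.19 on the log2 scale, beside −0.01. It ran from −0.10 (Atp5g1) to 0.41 (Uqcrfs1), with standard errors of 0.12 to 0.30 (n = 4 each), and exceeded its own standard error in 20 genes and 2 standard errors in 0. In 0 genes did all 5xFAD libraries lie above or below all WT libraries, beside 2.11% above and 2.23% below among all genes. Electron transfer chain genes were picked out by the study on these same libraries, so their direction is not independent evidence.

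5xFAD-2 was the highest of all 8 libraries in 21 of the 36 genes and WT-11 the lowest in 30, whereas among all tested genes they were so in 16.87% and 22.57%. Without 5xFAD-2 the median log2 fold change was 0.11 with 31 of 36 genes above 0, beside 46.8% of all genes. Without WT-11 it was 0.10 with 28 of 36 above 0, beside 46.78% of all genes. Without 5xFAD-2, 0 genes were higher and 0 lower at an unadjusted p under 0.05, beside 3.07% and 2.04% of all genes. Leaving out 5xFAD-2 moved the log2 fold change of 26 of the 36 genes by over 1.5 times or past 0, and leaving out WT-11 likewise moved 26. This was not counted for the other libraries or over all genes, so it does not set these libraries apart. Other libraries moved the values upward. Without 5xFAD-3 the median was 0.298 with 36 of 36 above 0, beside 49.64% of all genes. Without WT-22 it was 0.261 with 35 of 36 above 0, beside 50.02%. Without both 5xFAD-2 and WT-11, an alternative chosen after the markers had been seen, the median was −0.001 and 18 of 36 genes lay above 0. Among all genes the median was then −0.031, with 44.04% above 0. On average over the 36 genes, these were the highest 5xFAD library and the lowest WT library. Leaving both out therefore had to lower the mean fold change of these genes, and no conclusion is drawn from the fall. With the unread-base set as a term in the fit, the median of the 36 genes was 0.30, with 36 of 36 above 0, beside 52.66% of all genes. Within the low set it was 0.48 and within the high set 0.13, but each set held 1 library of one genotype (WT-11 and 5xFAD-21), so these values rest on single libraries.

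**Figure D1:**
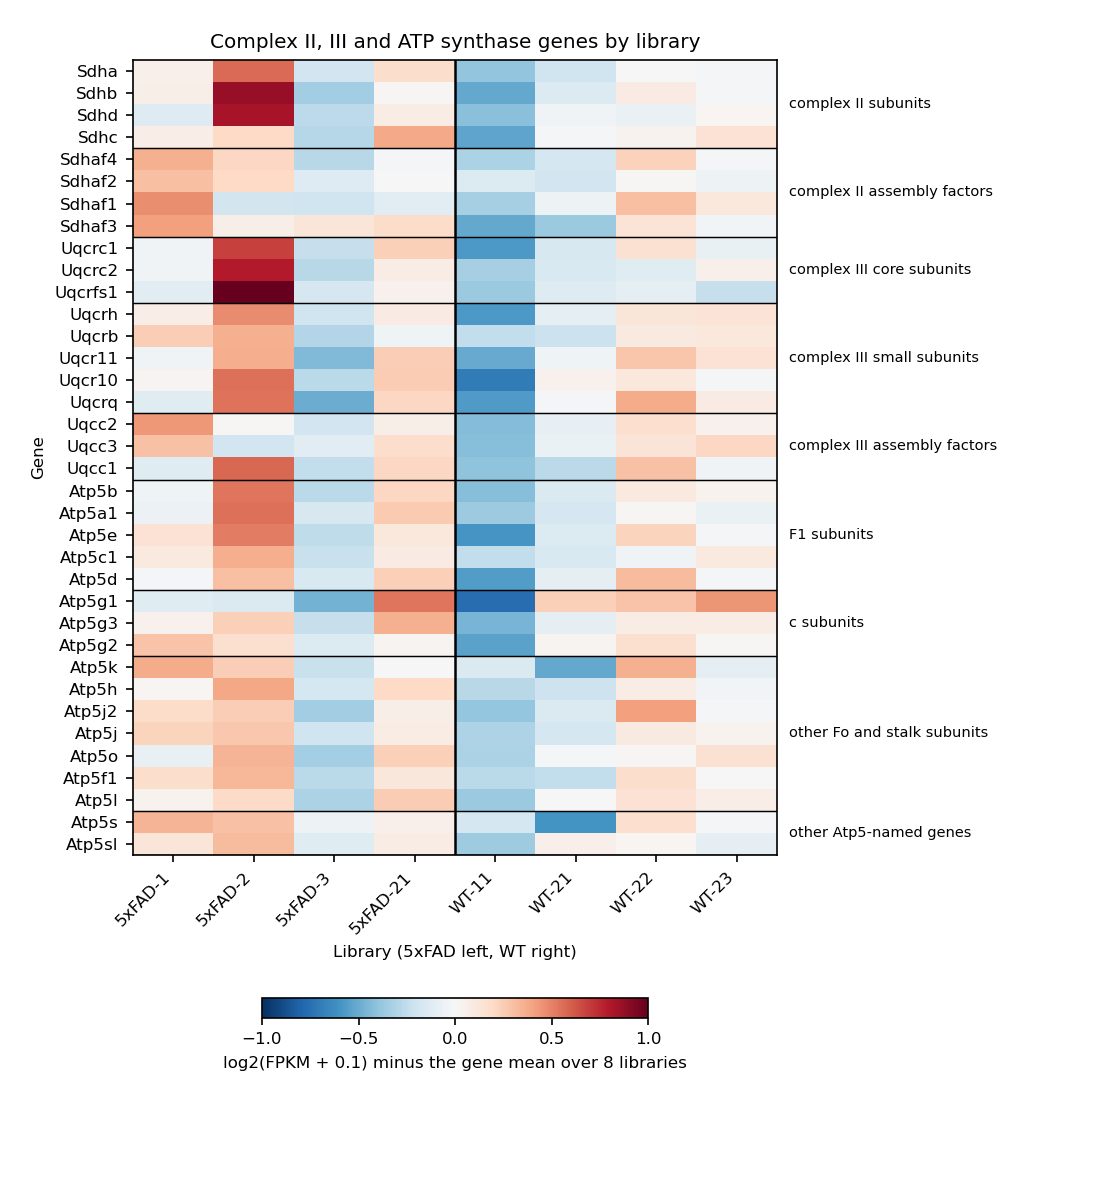
Each row is 1 of the 36 genes and each column a library, 5xFAD on the left and WT on the right; colour gives log2(FPKM + 0.1) minus the gene's mean over the 8 libraries, and saturates at 1. The 5xFAD-2 column is the highest in 21 genes and the WT-11 column the lowest in 30.

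The genes moved together from library to library. The mean deviation of the 36 genes from their own means was 0.11 in 5xFAD-1, 0.36 in 5xFAD-2, −0.23 in 5xFAD-3 and 0.14 in 5xFAD-21 on the log2 scale. In the WT libraries it was −0.41 in WT-11, −0.13 in WT-21, 0.13 in WT-22 and 0.03 in WT-23. Both groups thus held libraries on either side of 0. Over the 630 pairs of members the median Pearson r across the 8 libraries was 0.76, and 625 pairs had r above 0. Without 5xFAD-2 it was 0.80. This describes genes that share libraries and depth.

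Complex II subunits had a median log2 fold change of 0.28, with 4 of 4 above 0, and of 0.10 without 5xFAD-2. Sdha, the flavoprotein that oxidizes succinate (chr13:74322254-74350280, minus strand, GRCm38), had 133, 191, 113 and 145 FPKM in the 5xFAD libraries, in the order given above, against 97.5, 112, 129 and 126 FPKM in the WT libraries. The groups overlapped, with 5xFAD-3 below both WT-22 and WT-23. Its means were 145.6 ± 33.0 FPKM in 5xFAD and 116 ± 14.6 FPKM in WT (SD, n = 4 each), a log2 fold change of 0.31 ± 0.17 (SE) with a limma adjusted p of 0.672. It was 0.17 without 5xFAD-2. Sdhb, the iron-sulfur subunit, which was singled out after its values had been seen, had 88.6, 156, 66.9 and 85.6 FPKM in 5xFAD against 59.5, 77.2, 89.8 and 83.9 FPKM in WT libraries. Of the 5xFAD libraries, 5xFAD-2 alone stood above the WT range. Sdhd, a membrane anchor likewise singled out afterwards, had 142 FPKM in 5xFAD-2, 66.7 to 83.8 FPKM in the other 5xFAD libraries and 59.8 to 80.8 FPKM in WT libraries. Without 5xFAD-2 the log2 fold changes of Sdhb and Sdhd were 0.06 and 0.02, against 0.30 and 0.25 with it. Without WT-11 they were 0.18 and 0.16. Sdhc, the other anchor, had a log2 fold change of 0.18 ± 0.19 and was highest in 5xFAD-21. Its fold change was 0.04 without WT-11 and 0.09 without 5xFAD-21.

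The assembly factors of complex II were less abundant than its subunits, and 5xFAD-1 was the highest library in all 4, while WT-11 was the lowest in 3. Sdhaf4, which helps to assemble flavinated Sdha with Sdhb, had 56.2, 50.8, 36.3 and 43.6 FPKM in 5xFAD against 35.2, 39.0, 51.7 and 43.3 FPKM in WT libraries. The groups overlapped over most of their range, and the log2 fold change was 0.14 ± 0.17, with 0.09 without 5xFAD-2, 0.06 without WT-11 and 0.05 without 5xFAD-1. Sdhaf3, a factor for the iron-sulfur subunit, had 3.58, 2.78, 2.91 and 3.06 FPKM in 5xFAD against 1.85, 2.04, 2.95 and 2.63 FPKM in WT libraries. Here WT-22 alone reached into the 5xFAD range, and the log2 fold change was 0.38 ± 0.20 (limma adjusted p = 0.642). It was 0.43 without 5xFAD-2. Sdhaf2, which serves the attachment of FAD to Sdha, had a log2 fold change of 0.18 ± 0.12, and Sdhaf1, a factor for iron-sulfur insertion, one of −0.01 ± 0.20.

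The core subunits of complex III had the highest median fold change, 0.33 on the log2 scale, and 0.13 without 5xFAD-2. Their median excess in 5xFAD-2 over the other 5xFAD libraries, 0.87, was the largest of the roles. Uqcrc1, a core protein on the matrix side, had 124, 204, 108 and 149.8 FPKM in 5xFAD against 85.5, 114, 142 and 120.5 FPKM in WT libraries. Uqcrfs1, the Rieske iron-sulfur protein (chr13:30540308-30545362, minus strand), had 55.7, 125, 53.6 and 61.9 FPKM in 5xFAD against 46.5, 54.9, 56.3 and 51.3 FPKM in WT libraries. Apart from 5xFAD-2 the libraries of both groups lay within 46.5 to 61.9 FPKM. The log2 fold change of Uqcrfs1 was 0.41 ± 0.26 (limma adjusted p = 0.698), and 0.13 ± 0.11 without 5xFAD-2. That of Uqcrc1 was 0.33 ± 0.22, 0.15 without 5xFAD-2 and 0.19 without WT-11. Uqcrc2, the other core protein, singled out after its values had been seen, had a log2 fold change of 0.28 ± 0.22, and 0.06 without 5xFAD-2.

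Among the 5 small subunits of complex III the median was 0.13 with all 8 libraries and 0.04 without 5xFAD-2. Uqcrh, the hinge protein that helps cytochrome c to bind, was the most abundant, with 516, 683, 428 and 520.5 FPKM in 5xFAD against 329.8, 459, 536 and 540.5 FPKM in WT libraries. Uqcr10 had 275, 394, 223 and 322 FPKM in 5xFAD against 166, 278, 289 and 268 FPKM in WT libraries, a log2 fold change of 0.28 ± 0.23. In both genes WT-11 was the lowest library and 5xFAD-2 the highest. The log2 fold change of Uqcrh was 0.21, with 0.09 without 5xFAD-2 and 0.05 without WT-11, and that of Uqcr10 was 0.14 without 5xFAD-2 and 0.10 without WT-11. Uqcrb, Uqcr11 and Uqcrq had log2 fold changes of 0.13, 0.06 and 0.07, each smaller than its standard error. Uqcr11 and Uqcrq turned below 0 without 5xFAD-2 (−0.05 and −0.10) and without WT-11 (−0.09 and −0.11). Of the assembly factors, Uqcc2 had 149, 111, 96.5 and 115 FPKM in 5xFAD against 81.6, 104, 123 and 113 FPKM in WT libraries. Uqcc1, which acts with Uqcc2 in the synthesis of cytochrome b, had 18.6, 30.2, 17.1 and 23.4 FPKM in 5xFAD against 15.3, 16.8, 24.8 and 19.8 FPKM in WT libraries. 5xFAD-2 was thus the highest library for Uqcc1, while 5xFAD-1 was for Uqcc2. The log2 fold change of Uqcc2 was 0.16, and 0.04 without either WT-11 or 5xFAD-1. That of Uqcc1 was 0.21, with 0.05 without 5xFAD-2 and 0.11 without WT-11. Uqcc3, also a factor for cytochrome b, had a log2 fold change of 0.08 ± 0.17.

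**Figure D2:**
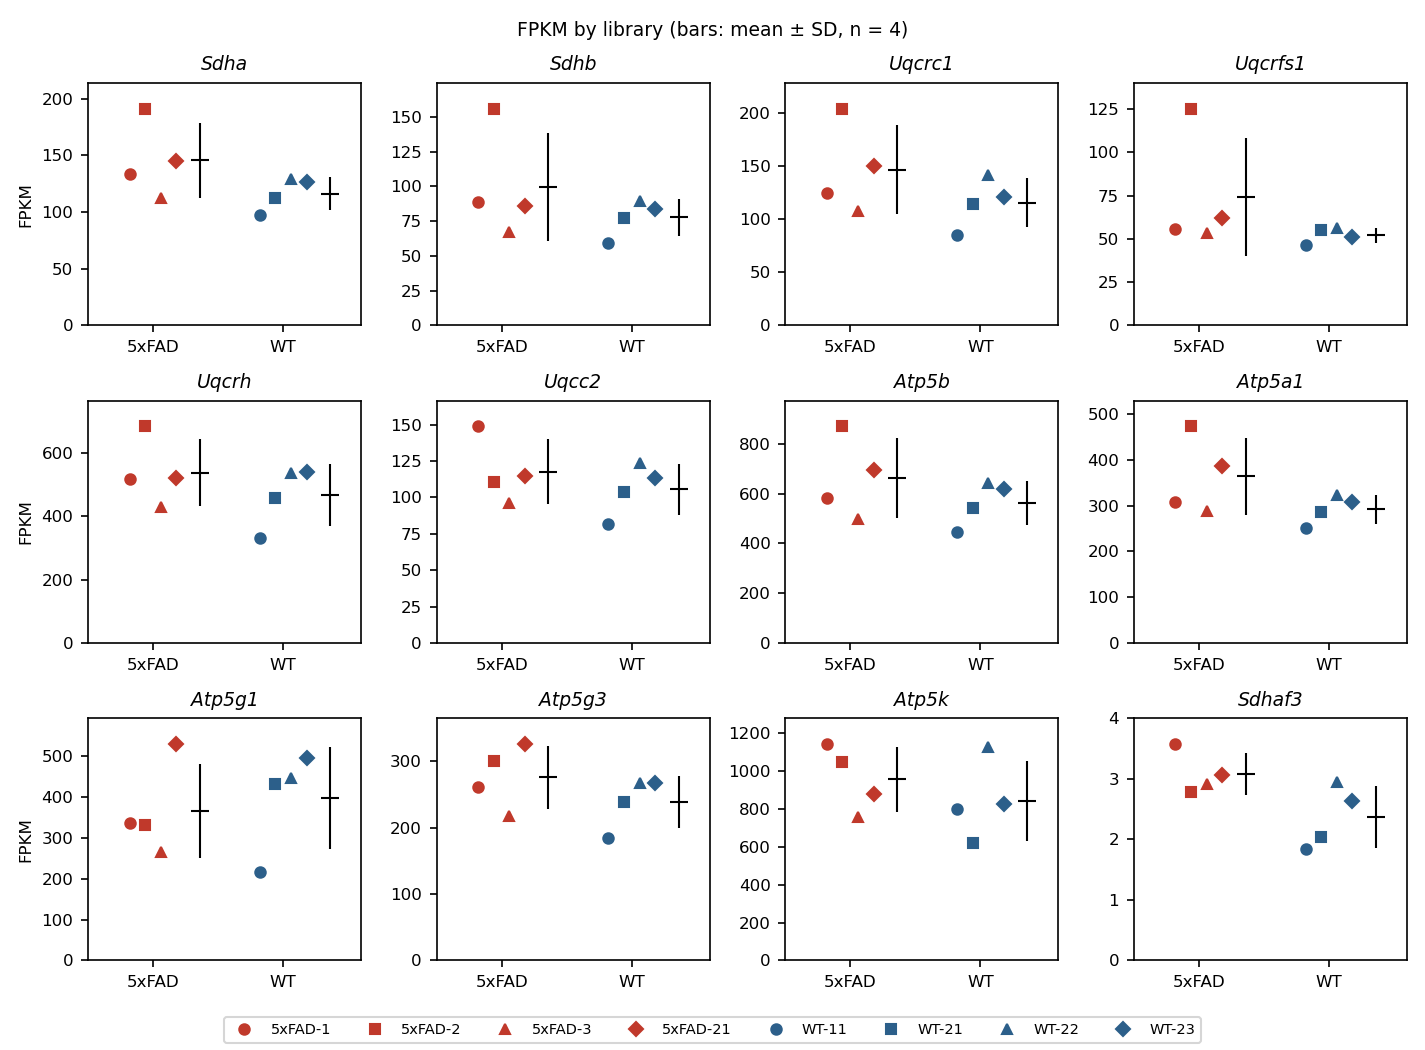
FPKM of 12 of the genes in each library, 5xFAD left of WT, with the group mean and SD (n = 4) beside the points. The groups overlap in all 12 panels; in Uqcrfs1 the 5xFAD-2 library, at 125 FPKM, lies far above the other 7.

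The 5 genes of F1 encode the head that makes ATP, and all had a fold change above 0, with a median of 0.22 on the log2 scale and of 0.11 without 5xFAD-2. Atp5b, the catalytic beta subunit (chr10:128083273-128090391, plus strand), had 583, 869, 499 and 695 FPKM in 5xFAD against 446, 543, 644 and 616 FPKM in WT libraries. Atp5a1, the alpha subunit, had 309, 473, 288 and 386 FPKM in 5xFAD against 251, 287, 324 and 307 FPKM in WT libraries. In both, 5xFAD-2 and 5xFAD-21 lay above every WT library and 5xFAD-1 and 5xFAD-3 within the WT range. The log2 fold changes were 0.22 ± 0.21 for Atp5b and 0.29 ± 0.18 for Atp5a1 (limma adjusted p = 0.791 and 0.698). Without 5xFAD-2 they were 0.08 and 0.16, and without WT-11 that of Atp5b was 0.11. Atp5c1, Atp5d and Atp5e, the gamma, delta and epsilon subunits of the central stalk, had log2 fold changes of 0.16, 0.18 and 0.25. Without WT-11 that of Atp5d was 0.02 and that of Atp5e 0.10.

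The 3 genes Atp5g1, Atp5g2 and Atp5g3 encode the same mature c subunit of the rotor ring and differ in their import sequences. Atp5g1 had 336, 331, 264 and 529 FPKM in 5xFAD against 216, 431, 446 and 496 FPKM in WT libraries. This was the member with the lowest log2 fold change, −0.10 ± 0.30, and the other below 0 was Sdhaf1. Atp5g2 had 79.5, 73.2, 59.4 and 66.5 FPKM in 5xFAD against 45.1, 66.6, 72.8 and 65.9 FPKM in WT libraries. Atp5g3 had 262, 299.8, 217 and 326 FPKM in 5xFAD against 184, 238, 267 and 267 FPKM in WT libraries. WT-11 was the lowest library for all 3, and without it the log2 fold change was −0.37 for Atp5g1, 0.02 for Atp5g2 and 0.09 for Atp5g3, against 0.17 and 0.21 for Atp5g2 and Atp5g3 with all libraries. Atp5g1 made up 47.0 to 57.4% of the FPKM of the 3 genes in 5xFAD and 48.5 to 59.8% in WT libraries. Within the high set of unread bases the fold change of Atp5g1 was 0.21, and with that set as a term 0.36, so its direction turned with that setting.

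The remaining 7 genes of Fo and the peripheral stalk had a median of 0.17 on the log2 scale, and of 0.09 without 5xFAD-2. Atp5k, the e subunit that helps hold dimers of the enzyme together, was the most abundant member, with 1143, 1048, 755 and 880.0 FPKM in 5xFAD against 797, 619, 1127 and 824 FPKM in WT libraries. Its log2 fold change was 0.20 ± 0.23, and 0.06 without WT-21, its lowest library. Atp5h, the d subunit of the peripheral stalk, had 450.3, 580.1, 394 and 511 FPKM in 5xFAD against 367, 385, 467 and 436 FPKM in WT libraries, a log2 fold change of 0.22 ± 0.16, and of 0.13 without 5xFAD-2. In Atp5k WT-22 lay between 5xFAD-1 and 5xFAD-2, while in Atp5h 5xFAD-2 and 5xFAD-21 were the highest. Atp5j, Atp5o, Atp5f1, Atp5j2 and Atp5l had log2 fold changes of 0.07 to 0.18. Atp5s had 15.7, 15.1, 11.9 and 12.8 FPKM in 5xFAD against 10.9, 8.14, 13.9 and 12.2 FPKM in WT libraries, a log2 fold change of 0.31 ± 0.18. Without WT-21, its lowest library, the log2 fold change was 0.17. Atp5sl, named Dmac2 in the newer annotation, had one of 0.20 ± 0.14. Reads of 5 processed pseudogenes named after Uqcrh, Atp5l, Atp5k and Atp5l2 may be shared with these genes, and their own values were at most 3.501 FPKM.

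**Figure D3:**
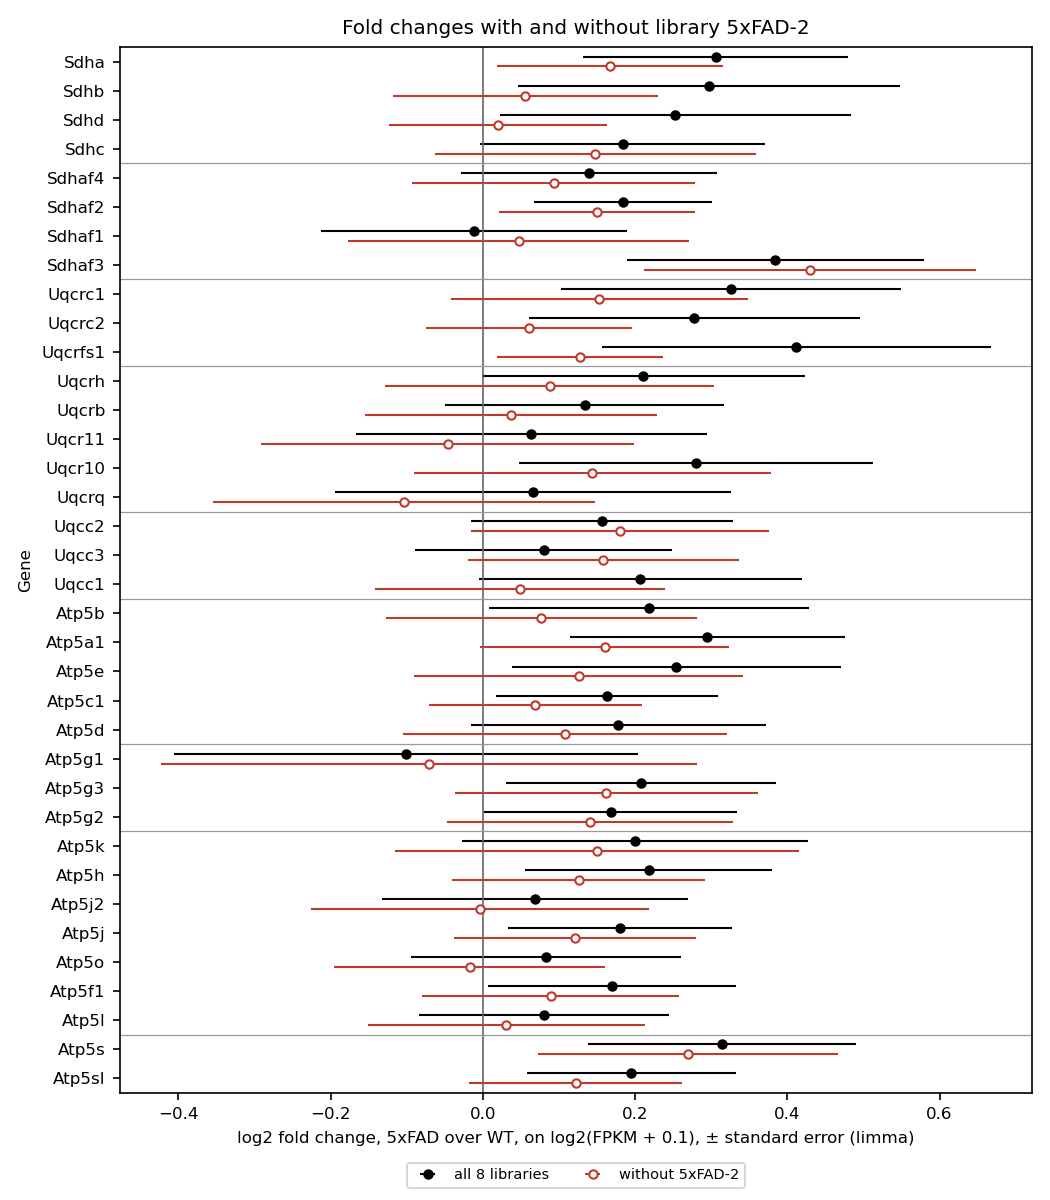
The log2 fold change of 5xFAD over WT with its standard error from limma, for each gene with all 8 libraries (black) and without 5xFAD-2 (open red). With all libraries 34 of 36 points lie above 0, without 5xFAD-2 31 do, and 0 of the black points lie 2 standard errors from 0.

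Library 5xFAD-2 was not raised evenly over the genes. Relative to the mean of the other 5xFAD libraries the median excess was 0.35 on the log2 scale over the 36 genes, beside 0.03 over all tested genes. It was 0.87 in the core subunits of complex III, 0.74 in complex II subunits and 0.51 in F1, but 0.28 in the other Fo and stalk subunits and 0.11 in the c subunits. The medians of the assembly factors were −0.02 for complex II and −0.09 for complex III, although Uqcc1 had an excess of 0.63. Uqcrfs1 (1.13), Sdhb (0.96) and Sdhd (0.93) had the largest excess, and 5 genes lay below 0, Uqcc3 (−0.31) and Sdhaf1 (−0.23) lowest. Among the 27 subunit genes 5xFAD-2 was the highest library in 19, and among the 9 others in 2. These are differences of 1 library and carry no test.

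**Figure D4:**
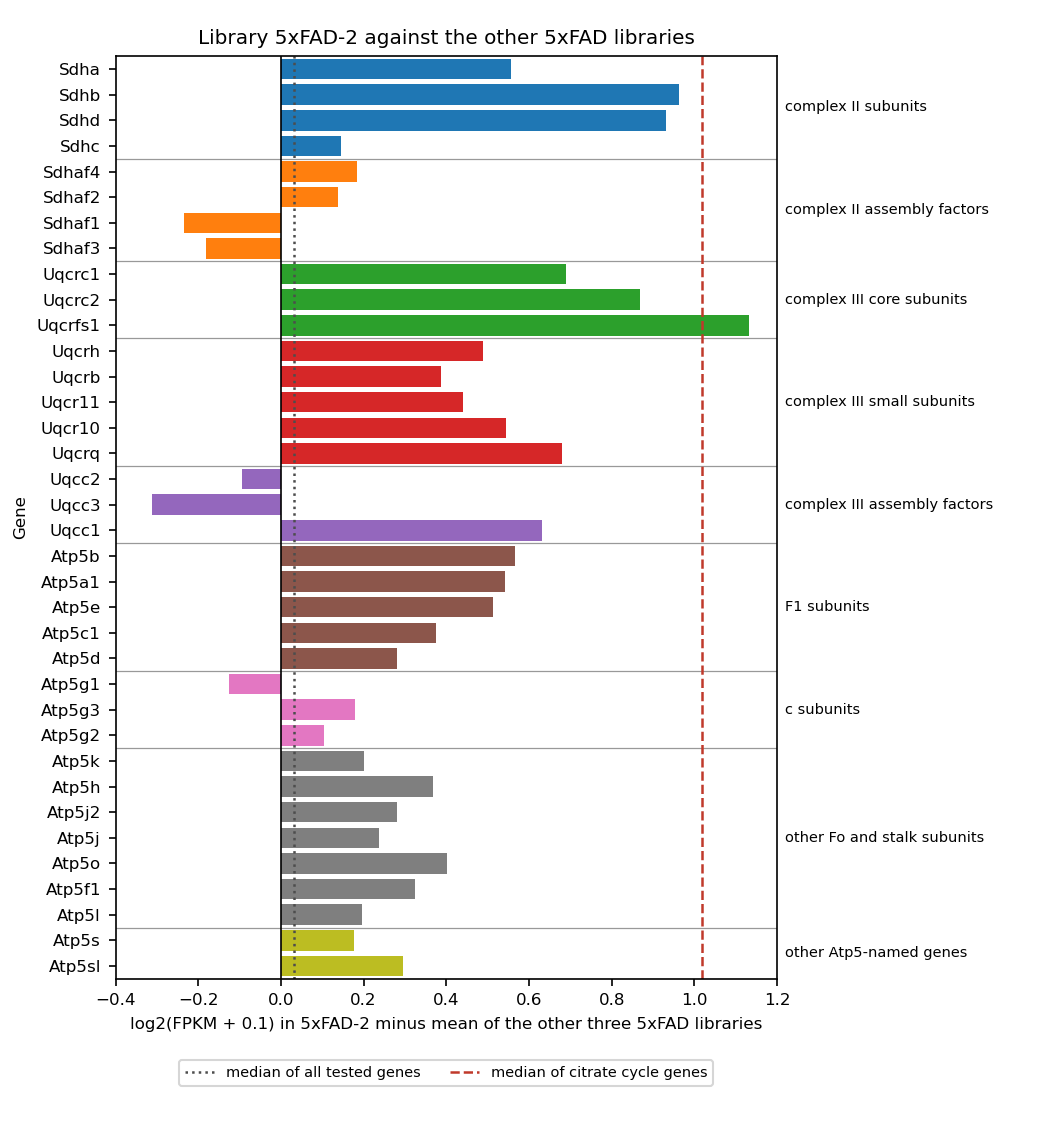
Bars give log2(FPKM + 0.1) in 5xFAD-2 minus the mean of the other 5xFAD libraries for each gene, coloured by role; the dotted line is the median of all tested genes (0.03) and the dashed line that of 13 citrate cycle genes (1.02). Uqcrfs1, Sdhb and Sdhd have the longest bars, and 5 genes lie below 0.

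The same library carried brown fat transcripts. Ucp1, the uncoupling protein of brown fat, had 516 FPKM in 5xFAD-2 and 0 to 0.193 FPKM in the other 7 libraries. Adipoq, an adipocyte hormone, had 62.2 FPKM there, and 0 to 0.305 FPKM elsewhere. These markers were singled out after their values had been seen. All 9 of the tested brown fat markers were highest in 5xFAD-2. Of these, Ucp1, Adipoq, Plin1, Pck1 and Cidec passed the filter of 1 FPKM only through that library, so their ranking was fixed by the filter. Their part in the level of the 36 genes was not tested.

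**Figure D5:**
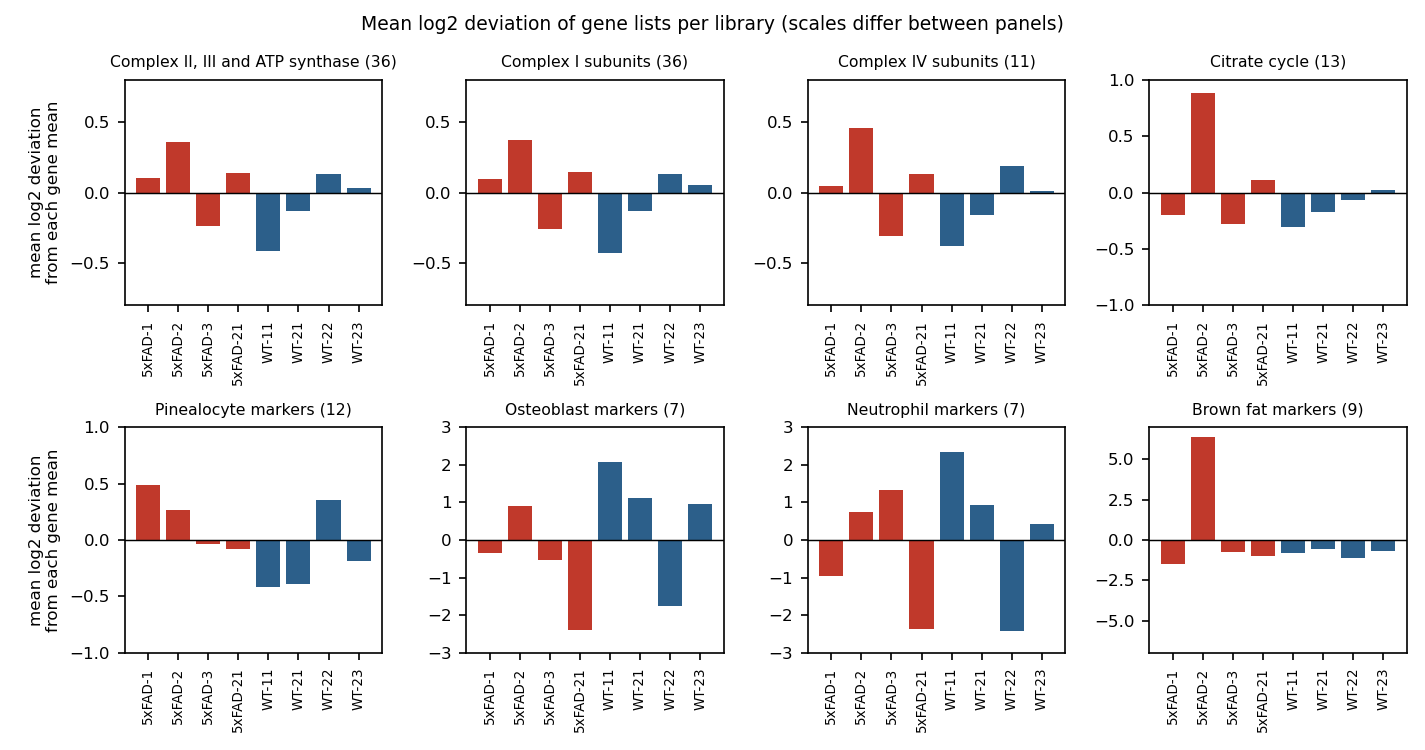
For 8 gene lists (number of genes in brackets), the log2 deviation of each library from the gene means, averaged over the list, 5xFAD in red and left, WT in blue and right; scales differ between panels. The 36 genes and the complex I and IV lists share a pattern with 5xFAD-2 high and WT-11 low, and the brown fat panel has 5xFAD-2 alone above 0.

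Other genes of energy metabolism were described in the same way. Of 36 tested complex I subunits, 34 had a fold change above 0, beside 48.7% of all genes. Their median was 0.18 on the log2 scale, and 0.08 without 5xFAD-2. Of 11 complex IV subunits, 10 had a fold change above 0, with medians of 0.16 and 0.05. All 13 citrate cycle genes did, with a median of 0.25. Without 5xFAD-2 it was −0.02 with 6 of 13 above 0, beside 46.8% of all genes. At an adjusted p under 0.05 from limma, 0 of these genes were called, beside 0.0382% of all tested genes. At an unadjusted p under 0.05, 1 complex I subunit was higher (Ndufb3, named after its value was seen) and 0 genes were lower. Among all tested genes 4.57% were higher and 3.33% lower. Cyc1, the cytochrome c1 of complex III that the naming rule misses, had 45.6, 94.8, 42.7 and 67.5 FPKM in 5xFAD against 38.0, 52.0, 58.5 and 54.6 FPKM in WT libraries. Its log2 fold change was 0.24 ± 0.26, and 0.02 without 5xFAD-2. The mitochondrially encoded mt-Cytb, cytochrome b of complex III, had 3893 to 9617 FPKM in 5xFAD and 4239 to 8821 FPKM in WT libraries. It was highest in 5xFAD-2 (9617 FPKM), the library that was highest for 21 of the 36 genes. It was also high in WT-11 (8821 FPKM), the library that was lowest for 30 of the 36 genes. The other libraries had 3893 to 5229 FPKM. The overlapping mt-Atp6 and mt-Atp8, subunits of Fo, were listed far lower. Their values were 2.65 to 8.03 and 15.9 to 20.9 FPKM in 5xFAD against 1.63 to 6.62 and 6.79 to 28.8 FPKM in WT libraries, and are uncertain. Of 10 regulators of mitochondrial biogenesis, among them Ppargc1a, Nrf1 and Gabpa, 5 had a fold change above 0 and the median was 0.002.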

How the data were processed

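Pineal glands of 5xFAD and WT mice were measured in 4 libraries each. The authors removed ribosomal RNA, trimmed paired reads with Trimmomatic, aligned them with STAR to GRCm38.p6 (GENCODE M17) and computed FPKM per gene with Cuffnorm; FPKM are the values they deposited. Tool versions and the library normalization within Cuffnorm are not given in the sources used here. Trimming, library scaling and short transcripts (23 of the 36 genes had a transcript of at most 1000 nt) all bear on FPKM. Of 53710 rows, 53616 matched GENCODE M21, the same genome build, by ID.

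Here, log2(FPKM + 0.1) was fitted with limma 3.58.1 in R 4.3.3 (trend on the mean, two-sided, no covariate) over protein-coding genes and long non-coding RNAs with a mean of at least 1 FPKM. Adjusted p values are Benjamini-Hochberg over 13094 protein-coding genes. P-values measure the spread between pools, which the labels call biological replicates. The 36 genes, lists and tests were chosen with earlier results of these data known. Genes given in every library are, for each role, the one with the highest mean and the one with the smallest p, and all c subunit genes. Sdhb, and other genes where the text says so, were added after their values were seen. Alternatives were other pseudocounts, filters, scalings, corrections for GC and length, unread-base sets, array weights, a replicate block and leaving out each library. Promoters came from RefSeq; Python 3.11.15 was used. A further item of the 5xFAD genotype is not reported here.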

Additional observations from a re-analysis of the deposited data

Results flagged for a closer look

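Dixon's test of the highest and lowest library was applied to the FPKM of the 36 genes in both groups, 72 groups of 4 libraries, and chance flags about 1 in 20. Uqcrfs1 in 5xFAD-2, at 125 FPKM, lay far above the other 5xFAD libraries (53.6 to 61.9 FPKM). Sdhaf1 in 5xFAD-1, at 6.61 FPKM, lay far above its group (4.14 to 4.43 FPKM). The causes were not tested.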

How the results depend on the processing

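In all 25 alternatives 0 of the 36 genes passed the adjusted threshold, and the smallest adjusted p from limma in any was 0.239. Over all tested genes the most calls were 93 of 13094, without WT-22, followed by 9 with array weights. The fewest were 0 of 13043, among genes above 0 in every library. Of 898 fold changes of single members under the alternatives, 842 kept their direction, 56 reversed, and 16 genes never reversed. None of the 36 had a called direction, and the cause of each reversal was not tested.

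With the same protein-coding total, 2 of the 36 genes were higher at an unadjusted p under 0.05 (all genes 6.71%), 2 did not overlap (all genes 4.89%), and Sdhaf1 was 0.019. With the unread-base set as a term, 2 were higher (all genes 5.28%), Atp5g1 was 0.36 and Sdhaf1 0.069. With the low set alone (1 WT library), chosen after seeing the data, 1 was higher (all genes 5.55%), 32 did not overlap (all above; of all genes 34.8% lay above and 31.0% below), the median was 0.48, Atp5g1 was 0.52 and Sdhaf1 0.36. With the high set alone (1 5xFAD library), also added, 17 did not overlap (16 above and 1 below; of all genes 25.3% and 24.2%), Atp5g1 was 0.21, Atp5g2 −0.039, Sdhaf4 −0.024, Uqcrb −0.036 and Atp5j2 −0.025. Where a group kept 1 library, it was assumed to vary like the others.

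With quantile normalization the median was 0.115 with 30 of 36 above 0, beside 48.83% of all genes. Sdhaf1 was then 0.056, Uqcr11 −0.002, Uqcrq −0.049, Atp5j2 −0.055, Atp5o −0.002 and Atp5l −0.016. With array weights the median was 0.097 with 29 of 36 above 0, beside 46.51% of all genes. Uqcc3 was then −0.019, Uqcr11 −0.085, Uqcrq −0.08, Atp5o −0.069 and Atp5l −0.033. Leaving out both 5xFAD-2 and WT-11 was added after the markers were seen. On average these were the highest 5xFAD and the lowest WT library of the 36 genes, so a lower mean follows from that choice. Sdhb was then −0.065, Sdhd −0.077, Uqcc1 −0.05, Uqcrc2 −0.004, Uqcrh −0.069, Uqcrb −0.024, Uqcr11 −0.203 and Uqcr10 −0.041. Uqcrq was −0.282, Atp5b −0.03, Atp5e −0.028, Atp5d −0.048, Atp5g2 −0.008, Atp5j2 −0.119, Atp5o −0.109 and Atp5l −0.079.

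Leaving out each library in turn gave a median of 0.10 to 0.30, 0 to 2 genes higher at an unadjusted p under 0.05 and 0 to 2 not overlapping (without 5xFAD-3, 1 and 2, beside 4.78% and 8.74% of all genes; without WT-22, 2 and 1, beside 9.64% and 16.5%). Ranges that crossed 0 were Atp5g1 (−0.372 to 0.038), Sdhaf1 (−0.168 to 0.087), Uqcc3 (−0.049 to 0.163), Uqcr11 (−0.093 to 0.223), Uqcrq (−0.112 to 0.242), Atp5j2 (−0.049 to 0.215), Atp5o (−0.017 to 0.211) and Atp5l (−0.029 to 0.198).

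A replicate block used the replicate number of the labels (1 to 4 in each group), which differs from the numbers in the library names. With it the median stayed 0.19. At an unadjusted p under 0.05 from limma, 0 of the 36 genes were higher and 0 lower, beside 387 and 305 of 13094 tested genes. Deviations of libraries with the same replicate number correlated at −0.04, 0.21, −0.34 and 0.24, which gives no pairing by these numbers. The SE of 0.12 to 0.30 over 4 pools each limits what differences could be seen.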
